A study of Homo sapiens with 6 samples.

Results

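Behind the T cell receptor stands a short chain of adaptors and enzymes, and the transcripts of 9 of them were compared in Jurkat cells with and without a splicing isoform of PD-1: LAT, LCP2, GRAP2, ZAP70, PLCG1, VAV1, TRAT1, THEMIS and RASGRP1. All 9 were found by symbol among the 59248 gene symbols measured, and all 9 passed the expression filter that left 21055 genes. Bulk RNA sequencing was run on 6 libraries of Jurkat, an established human T-cell leukemia line, from total RNA. In 3 libraries the cells overexpressed (OE) the isoform labelled PDCD1 with a superscript 28, written here PDCD1-28, and in 3 they carried the vector. The growth protocol names the cells Jurkat KO-1 for both groups, without saying what KO-1 means. Separate cultures are not named for the numbered libraries of a group, and a p-value here covers no more than the library-to-library spread, possibly a technical one. The construct's promoter and the number of clones are not given in the sources used here.

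Engagement of the receptor lets LCK phosphorylate the CD3 and zeta chains, to which the kinase ZAP70 binds. ZAP70 then phosphorylates the membrane scaffold LAT and the cytosolic scaffold SLP-76, the product of LCP2, which the adaptor Gads, the product of GRAP2, holds at LAT. On this platform PLCG1 makes inositol trisphosphate and diacylglycerol, VAV1 acts as a guanine nucleotide exchange factor, and RASGRP1, recruited by diacylglycerol, loads RAS with GTP. TRAT1 encodes TRIM, a transmembrane adaptor that associates with the receptor, and THEMIS encodes a partner of GRB2 that is needed for thymocyte selection. PD-1 restrains this chain in T cells by recruiting the phosphatase SHP-2.

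PDCD1, counted per gene and so without separating the isoform from other transcripts, stood at 945, 1059 and 807 estimated counts in OE libraries, against 14, 18 and 15 in vector libraries. Library totals ran from 61486369 to 72314037 estimated counts in OE and from 59911578 to 84220970 in vector. The 9 T cell markers checked were all detected; their summed level was 1599 to 1617 CPM (estimated counts relative to the library total after TMM scaling) in OE and 2051 to 2131 CPM in vector, and 7 of the 9 were lower in OE. Summed B cell markers reached 29.3 to 37.5 CPM in OE and 43.8 to 66.0 CPM in vector, with MS4A1 and PAX5 untested for low counts. Myeloid, natural killer cell and epithelial lists summed to at most 2.695 CPM in any library, and EPCAM and NCR1 were at 0 throughout. The part of these markers in the results below was not tested. Vector replicate 2 stood apart from the other vector libraries on the second principal component (10.7% of the variance), and values without it are given where a result rests on it. It was the lowest vector library for 7 of the 9 genes and the highest for ZAP70 and RASGRP1; among 14905 genes with a mean of at least 1 CPM it was the lowest for 42%.

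Of the 9 genes, 7 were lower in OE cells, 1 (ZAP70) was higher and 1 (VAV1) was not called, by edgeR's quasi-likelihood test at an adjusted p under 0.05. Among all genes tested, 46.1% were called, 23.4% lower and 22.6% higher. By mean CPM the lowest of the 9, TRAT1, stood at percentile 66.5 of the genes tested. A stricter filter kept genes with means of at least 1 CPM (without TMM) and 50 estimated counts. With it 8791 of 14917 genes were called, 4449 lower and 4342 higher, a larger share than over all genes tested. Positions below are those of GENCODE 29 on GRCh38 (hg38). The median log2 fold change of the 9 genes was -0.72, against 0.02 over all genes tested. For 8 of the 9, OE and vector libraries were fully separate: 7 with all OE libraries lower (28.6% of all genes) and 1 with all higher (30.1%), 58.7% of all genes being separate either way. GRAP2 and THEMIS were the members called lower by more than 2-fold. Of all genes tested, 6.22% were both called and at least 2-fold lower in OE. In bulk RNA, fewer cells that express a gene and less of its RNA per cell cannot be told apart.

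**Figure D1:**
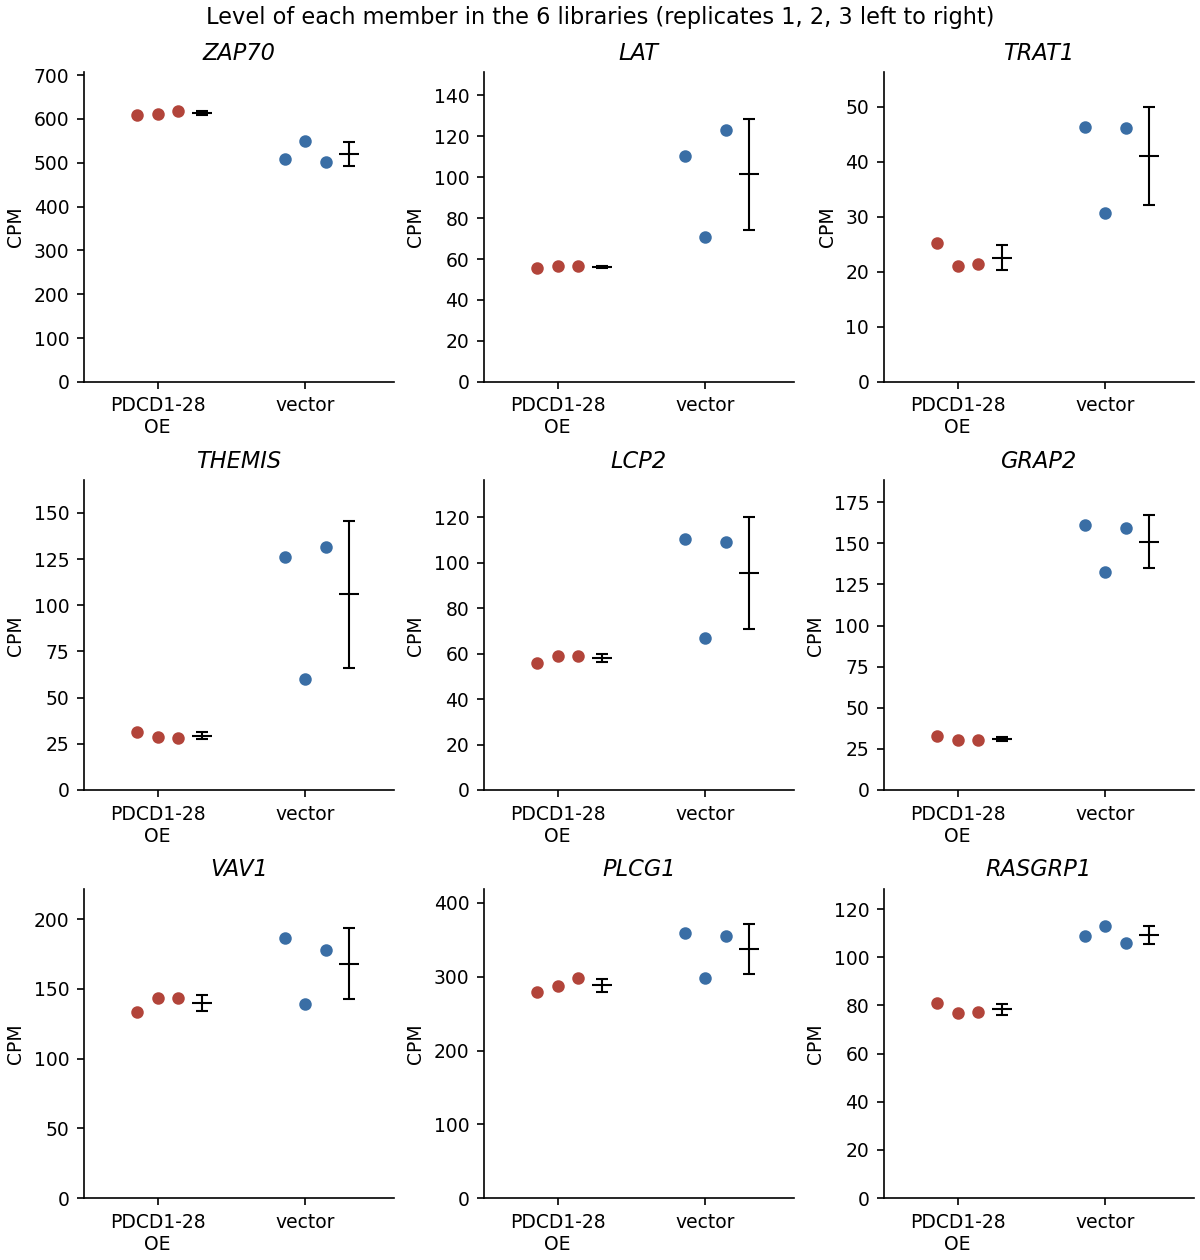
CPM of each of the 9 genes in each library, on axes that start at 0; points are libraries and bars the mean ± SD of 3. OE points lie close together, while vector replicate 2, the middle vector point, is the lowest vector value for 7 genes; only for VAV1 do the groups overlap.

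ZAP70 (chromosome 2, 97713560 to 97739862, plus strand), the kinase that phosphorylates LAT and SLP-76, was the member that rose. It stood at 609, 612 and 619 CPM in OE libraries, against 509, 550.2 and 501 CPM in vector libraries. Every OE library lay above every vector library, but the difference was small, at 1.18-fold. The log2 fold change was 0.24 ± 0.05 (SE), with an edgeR adjusted p = 0.00370.

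LAT (chromosome 16, 28984826 to 28990783, plus strand), the membrane scaffold, was present at 55.7, 56.6 and 56.5 CPM in OE libraries, against 110.4, 70.8 and 123 CPM in vector libraries. The groups did not overlap, and vector replicate 2 lay nearer to OE than to the other vector libraries. The fall was 1.80-fold (log2 fold change -0.85 ± 0.17; edgeR adjusted p = 0.00462), or -1.06 on the log2 scale without vector replicate 2. In GENCODE 29, 47.7% of the exon bases of LAT are shared with AC109460.3, a transcript annotated on the same strand, so reads of both can be counted for LAT. AC109460.4, an antisense gene on the opposite strand, shares 10.25% of the exon bases of LAT. No other member shared more than 2.78% of its exon bases with another annotated gene.

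TRAT1 (chromosome 3, 108822698 to 108855005, plus strand), the gene of the adaptor TRIM, had 25.1, 21.0 and 21.4 CPM in OE libraries, against 46.3, 30.8 and 46.2 CPM in vector libraries. The groups were separate, with vector replicate 2 the lowest vector library. Its log2 fold change was -0.87 ± 0.16 (edgeR adjusted p = 0.00271).

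THEMIS (chromosome 6, 127708072 to 127918631, minus strand) was measured at 31.5, 28.7 and 28.0 CPM in OE libraries, against 126, 59.9 and 132 CPM in vector libraries. Both vector replicates 1 and 3 held more than 4 times the OE mean of 29.4 CPM, and vector replicate 2 held about 2 times that mean. The fall was 3.60-fold (log2 fold change -1.85 ± 0.26; edgeR adjusted p = 0.000756), and -2.14 on the log2 scale without vector replicate 2.

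LCP2 (chromosome 5, 170246237 to 170298227, minus strand), which encodes SLP-76, stood at 55.8, 59.1 and 58.8 CPM in OE libraries, against 110.5, 67.0 and 109 CPM in vector libraries. As for LAT, the groups were apart and vector replicate 2 lay close to the OE values. The log2 fold change was -0.72 ± 0.17 (edgeR adjusted p = 0.00915), and -0.93 without vector replicate 2.

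GRAP2 (chromosome 22, 39901082 to 39973721, plus strand), which encodes Gads, showed the largest change of the 9. Its level was 32.6, 30.3 and 30.3 CPM in OE libraries, against 161, 133 and 159.6 CPM in vector libraries. The lowest vector library thus lay far above every OE library. The fall was 4.86-fold (log2 fold change -2.28 ± 0.08; edgeR adjusted p = 1.54e-06), with a range of -2.38 to -2.23 over the 14 alternative settings.

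The bases before the transcript start are shown for the 4 fallen genes whose windows held a core motif of T-lineage factors, that of ETS (GGAAGT), RUNX (TGTGGT) or GATA factors, which is AGATAA. Each run is the 250 bases before a RefSeq start on GRCh38.p14, read 5′ to 3′ on the gene's strand, with matches to these motifs or to the E-box CAGCTG, on either strand, in capitals.
GRAP2, chr22:39926354-39926603, plus strand: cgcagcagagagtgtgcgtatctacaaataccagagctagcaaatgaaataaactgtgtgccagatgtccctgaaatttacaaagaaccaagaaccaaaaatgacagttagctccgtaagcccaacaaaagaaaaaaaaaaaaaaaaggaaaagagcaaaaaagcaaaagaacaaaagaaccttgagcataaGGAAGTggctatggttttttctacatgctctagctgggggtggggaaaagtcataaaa
LCP2, chr5:170297778-170298027, minus strand: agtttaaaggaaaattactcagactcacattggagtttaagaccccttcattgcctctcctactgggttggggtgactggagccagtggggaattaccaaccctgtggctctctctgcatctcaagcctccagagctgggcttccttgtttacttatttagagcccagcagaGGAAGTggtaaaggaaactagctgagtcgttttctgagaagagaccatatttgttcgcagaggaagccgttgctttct
THEMIS, chr6:127918596-127918845, minus strand: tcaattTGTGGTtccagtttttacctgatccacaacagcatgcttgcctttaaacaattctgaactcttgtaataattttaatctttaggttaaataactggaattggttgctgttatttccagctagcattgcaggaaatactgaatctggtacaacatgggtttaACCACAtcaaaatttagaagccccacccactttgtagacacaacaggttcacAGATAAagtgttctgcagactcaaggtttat
TRAT1, chr3:108822536-108822785, plus strand: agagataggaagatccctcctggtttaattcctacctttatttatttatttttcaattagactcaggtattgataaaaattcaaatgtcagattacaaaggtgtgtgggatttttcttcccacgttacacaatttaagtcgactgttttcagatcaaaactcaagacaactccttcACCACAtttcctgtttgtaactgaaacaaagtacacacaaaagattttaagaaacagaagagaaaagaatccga
The windows of GRAP2 and LCP2 held GGAAGT, which is in 19.5% of 35116 such windows of all genes, and in 3 of the 15 windows listed for the 9 genes (the third is that of VAV1). TGTGGT was found in 2 of the 15, those shown for TRAT1 and THEMIS, at 2 places in that of THEMIS, and in 11% of all windows. AGATAA was in 1 of the 15, that THEMIS window, and in 9.17% of all windows. CAGCTG was in 14% of all windows and in 4 of the 15, from LAT, GRAP2 and ZAP70. Windows of LAT, PLCG1 and RASGRP1, which also fell, held none of the ETS, RUNX or GATA motifs. Neither did the windows of GRAP2 and THEMIS that are not shown. Whether these motifs bear on the falls was not tested. No matches overlapped in the windows shown. RefSeq lists several starts for GRAP2 and THEMIS, and the counts per gene do not say which was used.

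VAV1 (chromosome 19, 6772714 to 6857366, plus strand), the guanine nucleotide exchange factor, was at 133, 143 and 143 CPM in OE libraries, against 187, 139 and 178 CPM in vector libraries. Vector replicate 2 lay within the OE range and the other vector libraries above it. VAV1 was not called (log2 fold change -0.26 ± 0.10, 95% interval -0.50 to -0.03 before adjustment; edgeR adjusted p = 0.0665). Without vector replicate 2 it was called, at -0.39 (edgeR adjusted p = 7.91e-05), and with DESeq2 as well (adjusted p = 0.0129), in a range over all alternatives from 7.91e-05 to 0.193.

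PLCG1 (chromosome 20, 41136960 to 41196801, plus strand), the phospholipase of the complex, had 279.8, 287 and 298 CPM in OE libraries, against 359, 299 and 355 CPM in vector libraries. The highest OE library and the lowest vector library nearly met. Its fall of 0.23 ± 0.07 on the log2 scale was called (edgeR adjusted p = 0.0332), but the call was lost without any 1 of the OE libraries, without vector replicate 1 or 3, and with upper-quartile scaling, in a range over all alternatives from 7.9e-05 to 0.109.

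RASGRP1 (chromosome 15, 38488103 to 38565575, minus strand), the diacylglycerol-activated RAS exchange factor, stood at 81.1, 77.1 and 77.1 CPM in OE libraries, against 109, 113 and 106 CPM in vector libraries. Both groups were tight and well apart, and vector replicate 2 was here the highest vector library. The fall was 1.39-fold (log2 fold change -0.48 ± 0.05; edgeR adjusted p = 0.000129).

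Per kilobase of merged GENCODE exons, ZAP70 was the most abundant of the 9 in both groups, at 120.0 ± 0.976 CPM per kb in OE and 101.7 ± 5.18 CPM per kb in vector (SD, n = 3 each). VAV1 and PLCG1 followed, at 32.5 ± 1.31 and 29.9 ± 0.934 CPM per kb in OE and at 39.0 ± 5.89 and 35.0 ± 3.50 CPM per kb in vector. In OE the order then ran RASGRP1, LAT, TRAT1, LCP2, THEMIS and GRAP2, and only RASGRP1 and LAT overlapped as neighbours in that order. GRAP2 was the lowest there, at 5.02 ± 0.221 CPM per kb. In vector the order after PLCG1 ran THEMIS, GRAP2, LAT, RASGRP1, TRAT1 and LCP2, and from THEMIS to LCP2 each gene overlapped with the next. GRAP2 was the fifth of the 9 there, at 24.4 ± 2.59 CPM per kb. These lengths count every annotated transcript, so a level set between genes depends on the annotation.

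Transcript ratios between partners within a library do not depend on scaling between libraries, and 8 of them were tested. With 3 libraries a group, a two-sided exact permutation test reaches 0.1 at the lowest. All 8 ratios gave this exact permutation p = 0.1 (also 0.1 when adjusted over the 8), and none overlapped between the groups. Separate groups were common, being seen in 58.7% of single genes tested. The share of separate ratios among other gene pairs was not computed. Gads to SLP-76 transcripts (GRAP2 to LCP2) had log2 ratios per exon length of -0.55, -0.74 and -0.73 in OE, against 0.77, 1.21 and 0.78 in vector. GRAP2 thus exceeded LCP2 in every vector library and was below it in every OE library. GRAP2 to LAT differed by -1.47 and THEMIS to LAT by -0.95 between the group means, on the log2 scale. LCP2 to LAT had ratios of -0.7051, -0.65 and -0.65 in OE, against -0.7075, -0.79 and -0.88 in vector, so its groups were barely separate. This pair differed least, by 0.13, and by 0.08 without vector replicate 3. ZAP70 to LAT was 1.05 higher in OE on the log2 scale, PLCG1 to LAT 0.59 higher and VAV1 to LCP2 0.43 higher. RASGRP1 to PLCG1 differed by -0.26, and by -0.14 without vector replicate 2.

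**Figure D2:**
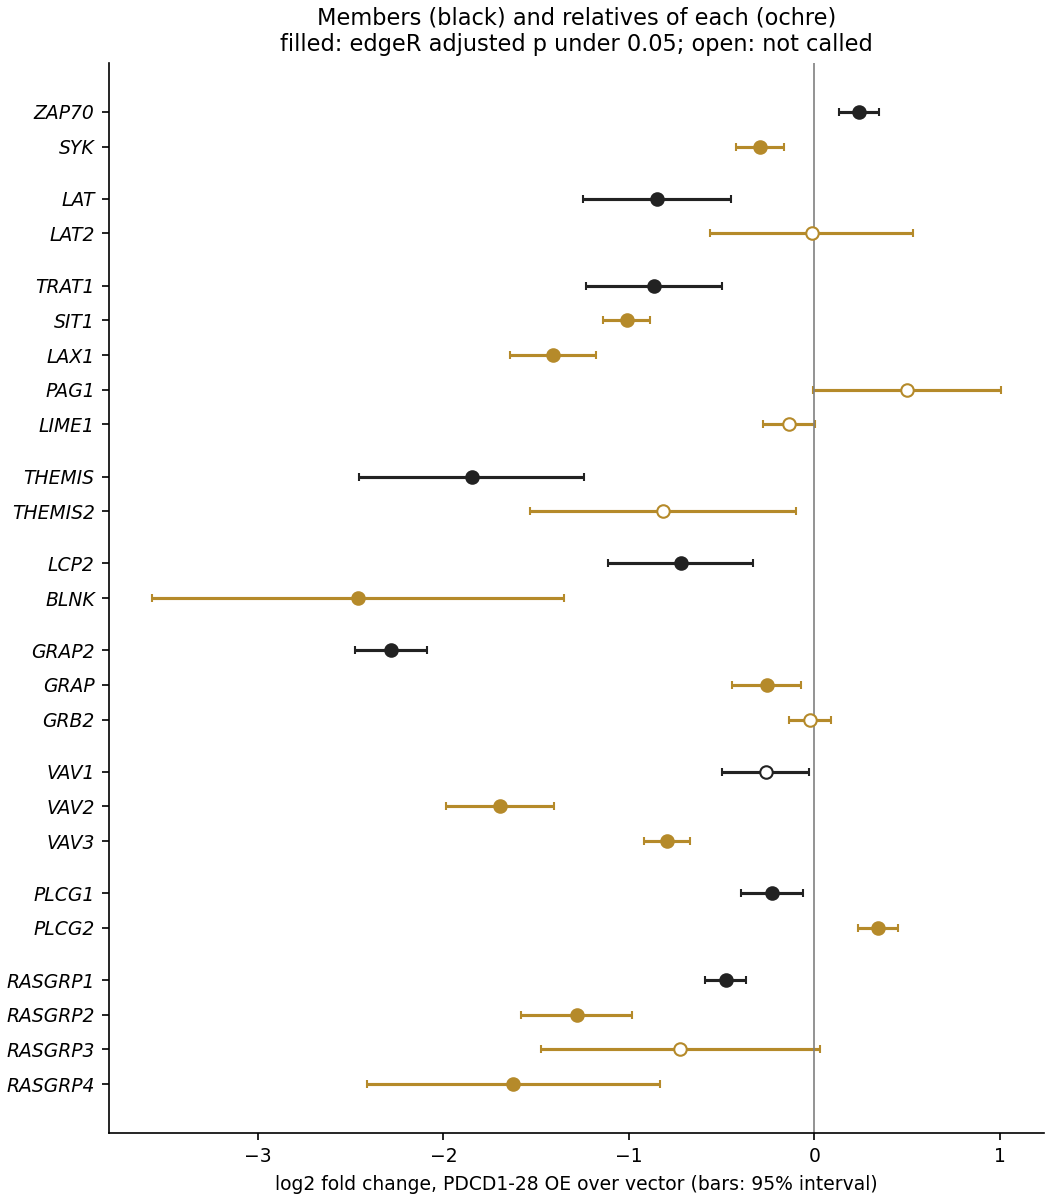
Log2 fold change (OE over vector) of each member and its relatives (for TRAT1, other transmembrane adaptors), with 95% intervals before adjustment. Filled points have an edgeR adjusted p under 0.05. GRAP2 lies at -2.28, GRAP at -0.26 and GRB2 near 0, and VAV2 and VAV3 lie below VAV1.

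Of 13 paralogues of the 9 genes, 12 were tested, 7 were called lower and 1, PLCG2, higher, with a median log2 fold change of -0.76. Among all genes tested, 23.4% were called lower and 22.6% higher. GRAP2 belongs to the GRB2 adaptor family. Its relative GRAP stood at 32.3 ± 2.24 CPM in OE and 38.6 ± 2.83 CPM in vector (SD, n = 3 each), with a log2 fold change of -0.26 ± 0.08 (SE; edgeR adjusted p = 0.0302). That call was lost without OE replicate 1 or 2 or vector replicate 3, with upper-quartile scaling and with no filter, in a range of adjusted p up to 0.111. GRB2, the ubiquitous member, was at 225 ± 4.29 CPM in OE and 228 ± 11.6 CPM in vector and was not called (log2 fold change -0.02, 95% interval -0.14 to 0.09). GRAP2 made up 8.33%, 7.75% and 7.80% of the length-scaled counts of the 3 genes in OE libraries, against 30.8%, 25.1% and 29.9% in vector libraries.

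Among the VAV genes, both relatives of VAV1 fell. VAV2 was at 11.7 ± 0.784 CPM in OE and 37.8 ± 6.37 CPM in vector (log2 fold change -1.70 ± 0.13; edgeR adjusted p = 2.99e-05). VAV3 was at 79.2 ± 4.07 CPM in OE and 137.5 ± 4.39 CPM in vector (log2 fold change -0.80 ± 0.05; edgeR adjusted p = 1.88e-05). VAV1 held 70.5%, 71.4% and 72.7% of the VAV total per exon length in OE libraries, against 64.1%, 54.3% and 62.1% in vector libraries. RASGRP1 likewise held 76.1%, 77.6% and 75.1% of its family in OE, against 62.9%, 70.7% and 61.6% in vector. RASGRP2, second in level per exon length in that family, had a log2 fold change of -1.28 ± 0.13 (edgeR adjusted p = 0.000131), and RASGRP4, at 0.510 CPM in OE and 1.59 CPM in vector, of -1.62 ± 0.34. RASGRP3, at 2.23 ± 0.521 CPM in OE and 3.68 ± 1.42 CPM in vector, was not called (-0.72 ± 0.33; edgeR adjusted p = 0.104), and its groups overlapped. Leaving out vector libraries moved RASGRP3 both ways: without replicate 2 it was called (-1.01 ± 0.24; edgeR adjusted p = 0.00799), and without replicate 3 it was not called, at -0.45.

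PLCG1 and PLCG2 moved in opposite directions. PLCG2, best known from B cells, rose, to 67.5 ± 1.11 CPM in OE against 53.3 ± 1.13 CPM in vector (log2 fold change 0.34 ± 0.05; edgeR adjusted p = 0.000640). PLCG1 held 85.0%, 85.7% and 86.0% of the pair per exon length in OE, against 90.4%, 88.8% and 90.0% in vector. ZAP70 and its relative SYK also diverged: SYK fell by 0.29 ± 0.06 on the log2 scale (edgeR adjusted p = 0.00335), and ZAP70 held 87.5%, 87.4% and 88.0% of the pair in OE, against 83.2%, 82.9% and 83.1% in vector.

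LAT2 and THEMIS2 were at 3.09 and 1.29 CPM in OE and at 3.12 and 2.27 CPM in vector and were not called. THEMIS2 was called lower under 6 of the 14 alternatives, among them DESeq2 (adjusted p = 0.0474) and without vector replicate 2 (edgeR adjusted p = 0.0353). LAT and THEMIS held at least 94.0% of their pairs in every library, with overlapping groups. BLNK, the B cell counterpart of SLP-76, was called lower, at 0.600 ± 0.171 CPM in OE and 3.30 ± 2.25 CPM in vector (log2 fold change -2.46 ± 0.48; edgeR adjusted p = 0.00371). Vector replicate 2 held 5.89 CPM of BLNK, against 1.86 and 2.14 CPM in the other vector libraries, and without it BLNK was still called, at -1.75. LCP2 held 98.0% ± 0.529 of its family in OE and 92.7% ± 6.56 in vector, a difference of 5.27 percentage points that became 1.49 without vector replicate 2. Of the other transmembrane adaptors, SIT1 and LAX1 fell, by 1.01 and 1.41 on the log2 scale. PAG1 and LIME1 were not called, at 0.50 ± 0.22 and -0.14 ± 0.06. Without vector replicate 2 PAG1 was called higher, by 0.23 ± 0.06 (edgeR adjusted p = 0.00926), and without vector replicate 3 by 0.69 ± 0.22 (edgeR adjusted p = 0.042). TRAT1 had no listed paralogue, so these 5 adaptors, grouped by kind and without LAT, stand in for its family. It held 13.97% ± 1.11 of their length-scaled counts in OE and 15.3% ± 2.67 in vector, with overlapping groups. Of the 9 shares, 6 did not overlap between the groups, where 58.7% of single genes tested did not. The portion of separate shares among other gene families was not computed. Each of these 6 gave an exact permutation p = 0.1, the smallest possible with n = 3 a group (adjusted over the 9 families, 0.15).

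**Figure D3:**
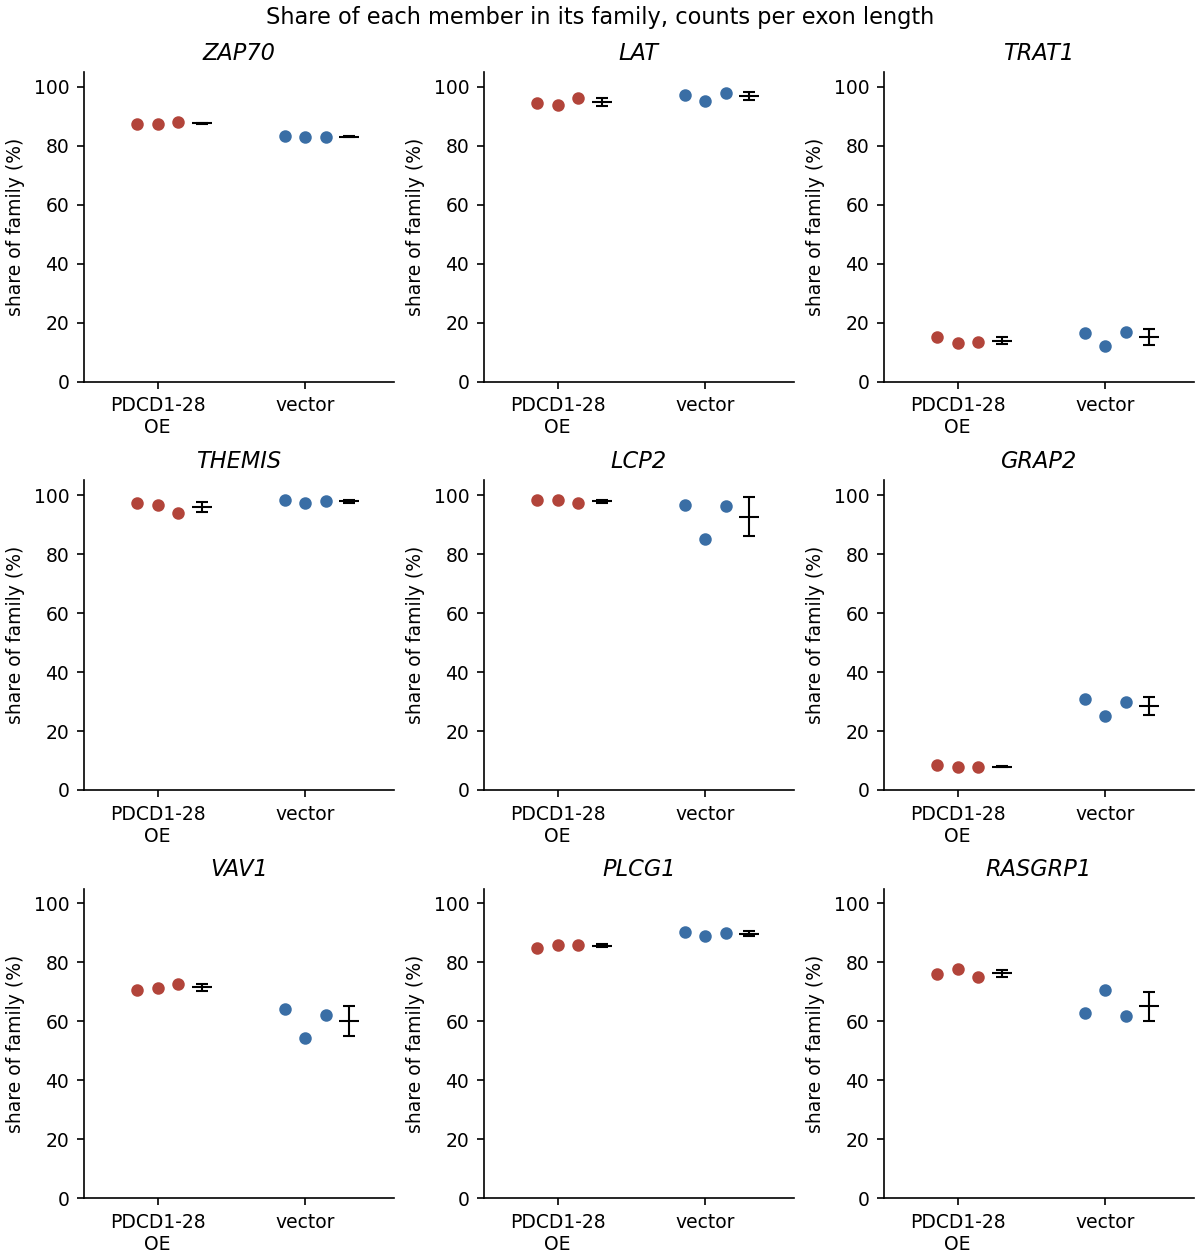
Share of each member in the length-scaled counts of its family, in percent, per library, with the mean ± SD of 3. For TRAT1 a set of transmembrane adaptors stands in for a family. The share of GRAP2 is below 9% in OE libraries and above 25% in vector libraries; those of VAV1 and RASGRP1 are higher in OE, and those of LAT, THEMIS and TRAT1 overlap.

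Other steps of the pathway are given as counts, to be read beside the 23.4% lower and 22.6% higher of all genes. Of 19 genes of the receptor, its coreceptors and upstream kinases, 11 were lower and 4 higher (median log2 fold change -0.41). The costimulatory receptor CD28 and the scavenger-type receptor CD6 had the smallest adjusted p among the falls, at -6.85 ± 0.22 and -2.07 ± 0.08. TRBC1, a receptor beta constant gene, and CSK, the kinase that restrains LCK, were higher by 0.42 ± 0.05 and 0.33 ± 0.05. Of the other listed receptor, CD3 and zeta chain genes, TRAC, CD3G and CD247 were lower, at -0.64, -0.63 and -0.41. TRBC2, CD3D and CD3E were not called.

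Partners of LAT or SLP-76, some of them carried by another protein such as GRB2, were split. Of 20, 4 were lower and 8 higher, with a median of 0.08. FYB1, the gene of the SLP-76 partner ADAP that links it to integrins, fell to 91.1 ± 4.16 CPM in OE, against 215.9 ± 14.8 CPM in vector. NCK2, an adaptor that binds phosphorylated SLP-76, fell by 0.86 ± 0.10 on the log2 scale. WAS, whose product WASP drives actin branching, rose to 89.4 ± 3.96 CPM in OE, against 50.4 ± 2.80 CPM in vector, and SOS2, a RAS exchange factor carried by GRB2, rose by 0.60 ± 0.08. 

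Downstream of PLCG1 and RASGRP1, of 20 genes of the diacylglycerol, RAS and ERK arm 6 were lower and 6 higher (median 0.06). MAPK3, an ERK kinase gene, rose by 0.73 ± 0.05 on the log2 scale. HRAS fell by 0.90 ± 0.09, and RASA1, a RAS GTPase-activating protein gene, rose by 0.32 ± 0.06. Of 11 genes of the inositol trisphosphate, calcium and NF-kB arm, 5 were lower and 2 higher (median -0.15). PPP3R1, the regulatory subunit gene of calcineurin, fell by 1.05 ± 0.07, whereas MALT1, a protease of NF-kB activation, rose by 0.46 ± 0.08 and ITPR3, a calcium release channel gene, by 0.29 ± 0.06. Of 16 genes that restrain proximal signalling, 9 were lower and 1, CSK, higher (median -0.45), and SLA, which encodes the adaptor SLAP that lowers receptor levels, fell to 104.0 ± 3.79 CPM in OE, against 300.0 ± 31.2 CPM in vector. Some genes stand in more than 1 of these lists.

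**Figure D4:**
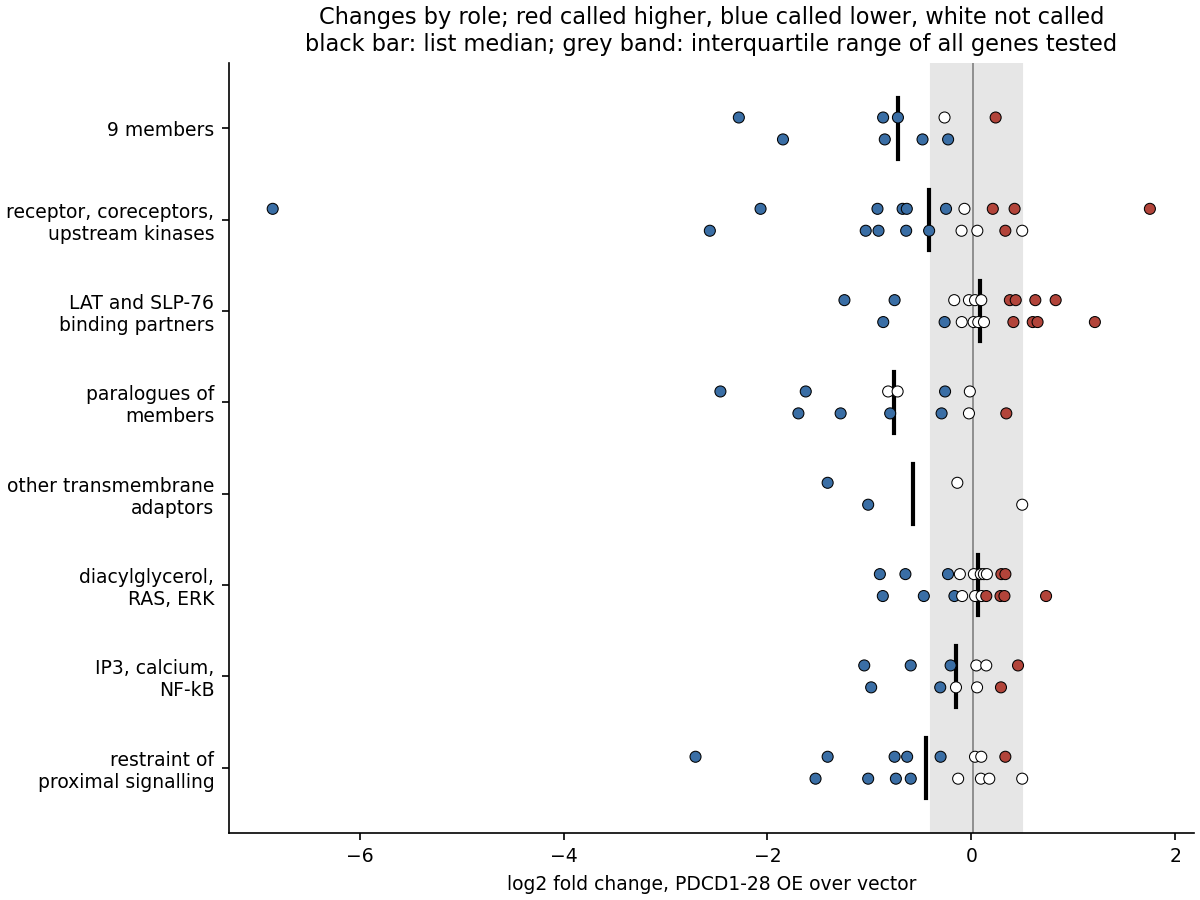
Log2 fold change (OE over vector) of each tested gene by role, with the list median as a black bar and the interquartile range of all tested genes as a grey band. The 9 members have a median of -0.72, the LAT and SLP-76 partners of 0.08.

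To see how each member's stretch of chromosome behaved, it was set beside its 40 nearest tested protein-coding genes, 20 on either side. The counts are to be read beside the 23.4% called lower and 22.6% called higher of all genes tested. Over all tested protein-coding genes the median log2 fold change was -0.06. On chromosome 2, 24 of the neighbours of ZAP70 were lower and 3 higher, with a median log2 fold change of -0.37, and ZAP70 at 0.24 lay above 36 of the 40. Around THEMIS on chromosome 6, 19 neighbours were lower and 5 higher with a median of -0.39, and 1 lay below THEMIS. No neighbour of GRAP2 on chromosome 22 fell as far as it did. Their median was 0.02, with 11 lower and 10 higher. Neighbours of LAT had a median of 0.04, with 4 called lower and 11 higher, and 1 of 40 lay below LAT. For LCP2 and TRAT1 the medians were -0.16 and -0.18, and 8 and 6 neighbours lay below the member. Called lower were 12 neighbours of LCP2 and 14 of TRAT1, and called higher 10 and 9. The neighbours of PLCG1, VAV1 and RASGRP1 had medians of 0.04, 0.20 and 0.04. For these members, in that order, 9, 8 and 7 neighbours were lower and 10, 14 and 13 higher.

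**Figure D5:**
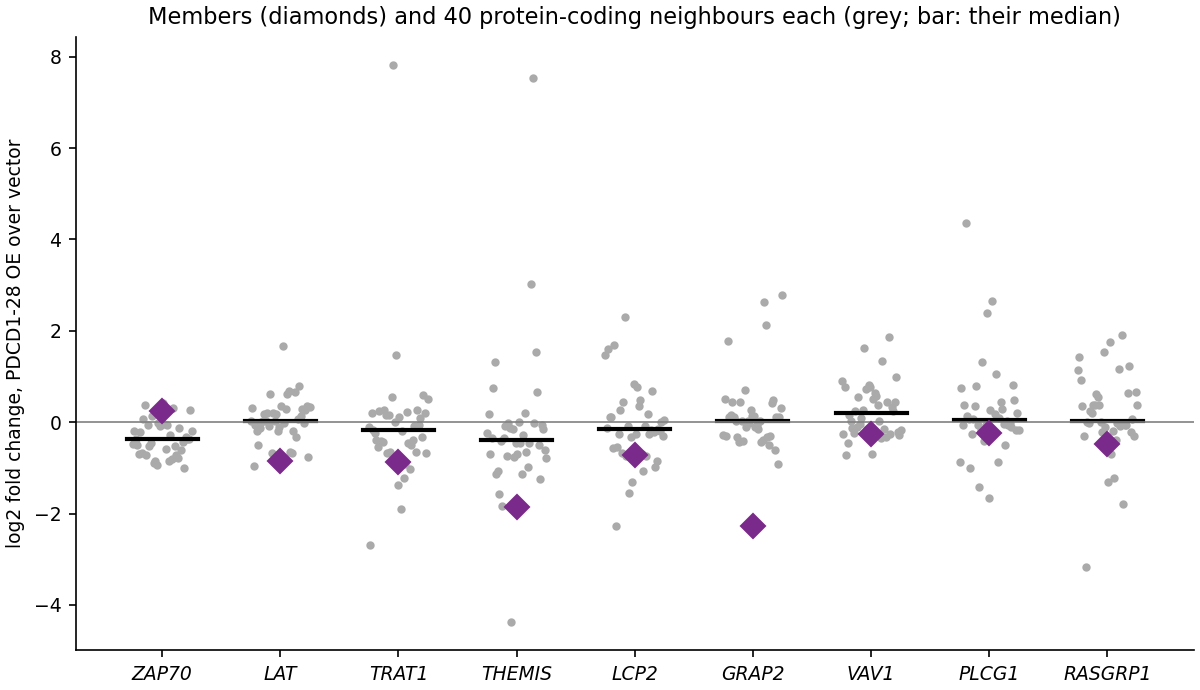
Log2 fold change (OE over vector) of each member (diamond) and of its 40 nearest tested protein-coding neighbours (grey, spread sideways at random), with their median as a bar. GRAP2 lies below all of its neighbours, and ZAP70 lies above most of its own, whose median is -0.37.

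Over the 6 libraries, RXRA and ITM2A were among the 3 genes with the profile closest to that of GRAP2, at distances of 0.237 and 0.238 on the centred log2(CPM + 0.5) scale among 14904 genes with a mean of at least 1 CPM. RXRA, a nuclear receptor gene, was at 1.15 ± 0.217 CPM in OE and 7.02 ± 1.04 CPM in vector. ITM2A, a membrane protein gene, was at 80.1 ± 2.71 CPM in OE and 355 ± 20.7 CPM in vector. These profiles share the same libraries, scaling and group difference.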

How the data were processed

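RNA was measured by bulk sequencing of 6 Jurkat libraries, 3 per group. The deposited table holds whole-number expected counts (estimated counts) per gene symbol, without scaling between libraries. The tools that the submitters' processing notes list are STAR 2.7.10a, fastp 0.23.2, DESeq2 and StringTie, and the build is hg38; their roles, the annotation and the strand setting are not given in the sources used here. In each library 4 was more frequent than 3 among low values, so 1 estimated count need not be 1 read, and no counting interval is given.

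Genes passing edgeR's default filter were scaled by TMM and compared by its quasi-likelihood F test in a model of group alone (edgeR 4.0.16, R 4.3.3). Adjusted p-values are Benjamini-Hochberg values over all 21055 genes tested, with a threshold of 0.05; SEs come from the F statistic. CPM uses TMM-adjusted totals. The fit was also run on simulated counts, in which a far smaller share of genes was changed than was called here. How it performs at the share called here was not tested. Positions and exon lengths come from GENCODE 29 on GRCh38, the assembly hg38 names, which matched 37721 of 59248 symbols; member matches are complete. Overlapping and antisense genes cannot be told apart without a stated strand setting. Shares and ratios used exact permutation tests (statsmodels 0.14.6 for adjustment). DESeq2 1.42.0 and limma-voom (limma 3.58.1) were alternatives, with other scalings and filters, values divided by 4, a replicate block and each library left out. Figures used matplotlib 3.10.9.

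Members and lists were chosen with earlier results of these data known. The text names all members, their relatives, PDCD1 and the listed receptor, CD3 and zeta chain genes. From each list it names up to 2 higher and 2 lower called genes of smallest adjusted p. It also draws on the 3 profiles closest to that of the most changed member. Values of a few of these are left out and not reported here.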

Additional observations from a re-analysis of the deposited data

How the results depend on the processing

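Under the 14 alternatives 6 to 8 of the 9 genes were called lower and 1, ZAP70, higher. LAT, LCP2, GRAP2, TRAT1, THEMIS, RASGRP1 and ZAP70 kept direction and call throughout; the exceptions were PLCG1 and VAV1, as given above. Over all genes, 7916 to 10868 were called when 1 library was left out, and 9705 with all 6. Whether the replicate numbers pair the libraries is not given in the labels. Same-numbered deviations correlated weakly (0.03, 0.01 and 0.02), and each library correlated best with its own number. Such weak correlations from 3 libraries a group cannot settle the question. With the replicate block 8690 genes and 8 of the 9 members were called, and of the relatives RASGRP3 and THEMIS2 were called as well, at -0.67 (edgeR adjusted p = 0.0431) and -0.87 (edgeR adjusted p = 0.0401). Without division by gene length the difference in family share was -25.3 percentage points for GRAP2, -5.31 for PLCG1 and -3.90 for TRAT1, a change set by the lengths themselves. The uncalled values of LAT2 and GRB2 changed sign: with upper-quartile scaling they were 0.030 and 0.024, and with 1 library left out they ranged from -0.17 to 0.17 and from -0.054 to 0.0096. The cause was not tested. The relatives with means under 4 CPM in both groups were RASGRP3, RASGRP4, THEMIS2, LAT2 and BLNK, of which RASGRP4 and BLNK were called; what depth did to the others was not tested.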
